A study of Mus musculus with 8 samples.

Results

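The endothelin system of mouse gastrointestinal stromal tumors (GIST) was described through its 7 genes: the ligands Edn1, Edn2 and Edn3, the receptors Ednra and Ednrb, and the converting enzymes Ece1 and Ece2. They were taken by symbol from the deposited table of gene expression, which held 34586 symbols, and all 7 were found, each in 1 row with a valid estimate in all 8 libraries. The values are FPKM, sequenced fragments per unit of transcript length and per unit of library size, so levels can be set side by side between genes. Of the 7 genes, 6 reached the mean of 1 FPKM over the 8 libraries needed to be tested, and Edn2 did not.

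RNA from tumors explanted from the cecum of C57BL/6 mice was sequenced in 8 libraries. The mice carried 1 Kit V558Delta allele, the activating mutation that drives the tumor, 2 floxed copies of Etv1, and CreERT2 in both Rosa26 alleles. The vehicle group had 4 libraries and the tamoxifen group, in which CreERT2 is activated to delete Etv1, had 4. The comparison asks how the tumors differ once Etv1 has been ablated. All 8 libraries were from the same genotype, and tumors without floxed alleles given tamoxifen are not analysed here, so the effect of tamoxifen itself and that of Etv1 loss cannot be told apart. Rosa26 is active in most cell types, so Etv1 may have been deleted in any cell of the tumor or its stroma. The dose, the time after treatment and the age of the mice were not given in the labels. The labels do not say whether the libraries of a group came from separate mice or separate tumors, so the p-values measure only the spread between these samples, which may be technical.

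Endothelins are short vasoactive peptides cut from longer precursors, first by furin-type proprotein convertases and then by the endothelin-converting enzymes. They act on a pair of G protein-coupled receptors: Ednra, which responds mainly to the products of Edn1 and Edn2 and mediates contraction of smooth muscle, and Ednrb, which binds all of the endothelins about equally and also clears them. In the gut, Edn3 and Ednrb are best known for guiding neural crest cells as they colonise the bowel wall and form the enteric nervous system, while Edn1 is a product of endothelium. Etv1 is an ETS family transcription factor needed by the interstitial cells of Cajal, the gut pacemaker cells to which GIST is related.

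The stretches that encode the mature ligands are shown because the ligands differ so widely in level and differ in sequence in the part that sets receptor preference. They were read from the GENCODE M21 annotation of build GRCm38. Each is 63 bases, or 21 codons, on the plus strand within exon 2 of 5: chr13:42303649-42303711 for Edn1, chr4:120161951-120162013 for Edn2 and chr2:174761749-174761811 for Edn3. Capitals mark the 6 codons whose encoded residue is not the same in all of the ligands.
Edn1: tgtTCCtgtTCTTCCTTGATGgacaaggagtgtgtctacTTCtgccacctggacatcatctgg
Edn2: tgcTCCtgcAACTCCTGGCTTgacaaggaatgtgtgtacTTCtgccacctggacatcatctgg
Edn3: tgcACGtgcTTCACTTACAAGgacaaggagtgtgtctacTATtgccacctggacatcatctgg
Edn1 and Edn2 differed at 3 encoded residues and 10 bases. Edn3 differed from each of the others at 6 residues, with 13 bases different from Edn1 and 15 from Edn2. The divergent codons lay towards the 5′ end, apart from 1 further on, and the 3′ end of the stretch was alike in all of them.

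Absolute read depth is unknown because the table gives FPKM, and relative depth, estimated from the value of 1 read in low genes, ranged from 0.824 to 1.16 of that of vehicle replicate 1. Of 15023 tested genes, limma called 819, or 5.45%, at an adjusted p under 0.05: 461, or 3.07%, lower in tamoxifen and 358, or 2.38%, higher. With libraries scaled to the same total FPKM, 75 were lower and 153 higher. Etv1 itself measured 34.6, 51.1, 40.4 and 38.6 FPKM in vehicle replicates 1 to 4 and 34.9, 19.7, 31.4 and 17.4 FPKM in tamoxifen replicates 1 to 4. The library labelled tamoxifen replicate 1 lay within the vehicle range and the other tamoxifen libraries lay below it. The Etv1 difference was -0.70 on the log2 scale (SE 0.24) and missed the threshold (limma adjusted p = 0.13). Which exons are floxed is not given in the sources used here, so reads outside them may remain in these values. Each endothelin result is therefore also given without that library.

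Edn3 was by far the highest endothelin gene in the tumors. In vehicle it measured 383 FPKM ± 75.3 (SD, n = 4), above 98.7% of the tested genes, followed by Ednra at 127 ± 14.3, Ece1 at 42.3 ± 14.6, Ednrb at 36.0 ± 13.2, Ece2 at 8.78 ± 0.587, Edn1 at 2.63 ± 0.265 and Edn2 at 0.502 ± 0.254. Neighbours in this order were separated in every vehicle library except Ece1 and Ednrb, whose ranges overlapped, with Ece1 the higher in 2 of 4. In tamoxifen the order of the means was the same. There the ranges of Ednra and Ece1 overlapped, although Ednra was higher within 4 of 4 libraries, as did those of Ece1 and Ednrb and those of Ece2 and Edn1, each pair split 2 of 4.

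**Figure D1:**
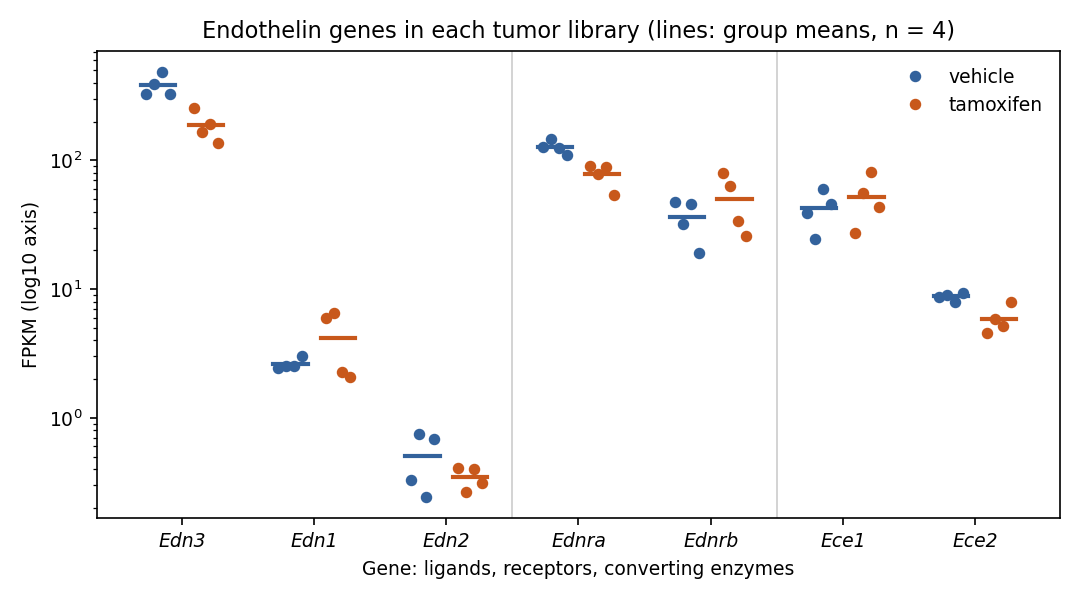
FPKM of the 7 endothelin genes in each library on a log10 axis, grouped as ligands, receptors and converting enzymes; points are libraries (blue vehicle, orange tamoxifen) and bars are group means (n = 4). Edn3 lies above every other gene in both groups, and its tamoxifen libraries (135 to 253 FPKM) all lie below its vehicle libraries (326 to 486 FPKM).

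Against vehicle, 1 of the 6 tested endothelin genes passed the threshold, Edn3, which was lower in tamoxifen; over all tested genes 3.07% were called lower. The median log2 fold change of the 6 genes was -0.14, against 0.01 for all tested genes. In 3 of the 6, Edn3, Ednra and Ece2, every tamoxifen library lay below every vehicle library, where 7.74% of all tested genes did so. In 0 of the 6 did every tamoxifen library lie above every vehicle library, against 7.37% of all tested genes.

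**Figure D2:**
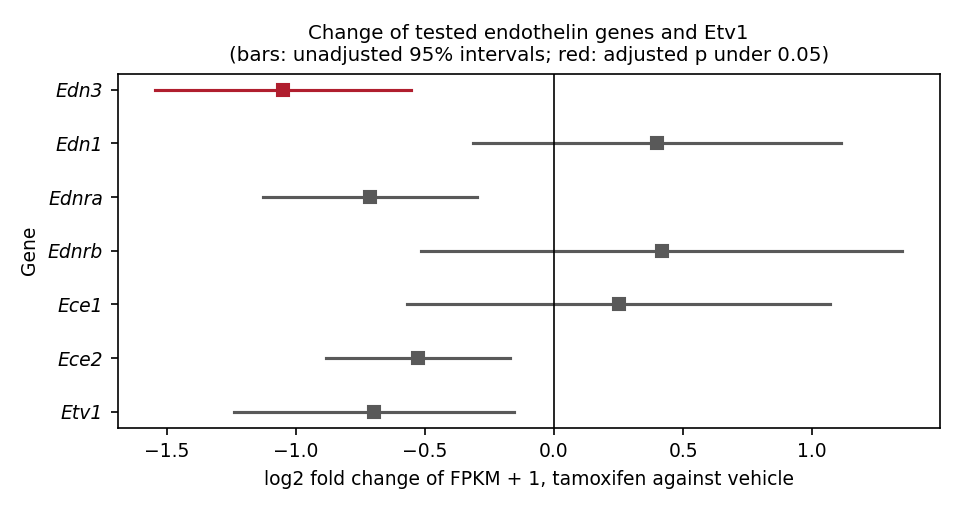
Log2 fold change of FPKM + 1, tamoxifen against vehicle, for the 6 tested endothelin genes and Etv1; squares are limma estimates from 4 against 4 libraries, bars are unadjusted 95% confidence intervals, and red marks an adjusted p under 0.05. Edn3 (-1.05) is the only gene drawn in red; the intervals of Ednra, Ece2 and Etv1 also lie below 0, and those of Edn1, Ednrb and Ece1 span it.

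Edn3, whose product acts through Ednrb, fell, and every tamoxifen library was below every vehicle library. It measured 326, 394, 486 and 328 FPKM in vehicle and 253, 167, 192 and 135 FPKM in tamoxifen. The highest tamoxifen value, that of replicate 1, was still below the lowest vehicle value, also that of replicate 1. The mean in tamoxifen was 187 FPKM ± 49.9 (SD, n = 4), so that vehicle was 2.05-fold higher, with a log2 fold change of -1.05 (SE 0.22, 95% confidence interval -1.55 to -0.55, limma adjusted p = 0.0333). At 187 FPKM, Edn3 still stood above 97.2% of the tested genes. Edn3 lies at chr2:174586120-174609543 in mm9 (ENSMUSG00000027524), in a locus that no other listed gene overlaps.

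The Edn3 call sat close to the threshold. Without the library labelled tamoxifen replicate 1 the log2 fold change was -1.21 and the adjusted p 0.0242, but leaving out any other library gave an adjusted p from 0.0511 (without tamoxifen replicate 3) to 0.0903 (without vehicle replicate 3), with 0.0576 without vehicle replicate 1, 0.0879 without vehicle replicate 2, 0.0674 without vehicle replicate 4, 0.0788 without tamoxifen replicate 2 and 0.0517 without tamoxifen replicate 4. The call was also lost with no filter on level (adjusted p = 0.0545), with the replicate number as a block (0.0664) and with libraries scaled to the same total (0.256), while the log2 fold change stayed between -0.91 and -1.21 under all of these settings.

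Edn3 is known as a gene of interstitial cells of Cajal and GIST, and in bulk tumors fewer cells of a type and less RNA per cell cannot be told apart. The other 7 genes of that cell type list summed to 1234 to 1805 FPKM in vehicle and 1000 to 1449 FPKM in tamoxifen. limma called 0 of these 7, with 3 at an unadjusted p under 0.05, 5 log2 fold changes below 0 and 2 above, and a median of -0.27. Of all tested genes 5.45% were called, so 0 of 7 is near that share. The share of all tested genes at an unadjusted p under 0.05 is not given here. Kit, the mutated receptor tyrosine kinase of the tumor, was at 760 FPKM ± 161 in vehicle and 447 ± 82.1 in tamoxifen (SD, n = 4; limma adjusted p = 0.0674). Ano1, the calcium-activated chloride channel of these cells, was at 522 ± 83.4 and 433 ± 72.1 (adjusted p = 0.396).

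Edn3 was therefore also expressed per library as a log2 ratio to genes of that cell type. Its ratio to Ano1 was -0.34, -0.53, -0.31 and -0.61 in vehicle and -0.70, -1.29, -1.48 and -1.45 in tamoxifen, lower in 4 of 4 tamoxifen libraries than in any vehicle library. The difference of -0.78 gave an exact 2-sided permutation p of 0.0286, the smallest that 4 against 4 allows, and 0.214 after Benjamini-Hochberg adjustment over 10 ratios. Without the library labelled tamoxifen replicate 1 the difference was -0.96. The ratio to Kit differed by -0.29 (exact permutation p = 0.343, adjusted 0.571) and overlapped between groups. The ratio to the orphan receptor Gpr20 differed by -0.27 (exact permutation p = 0.457, adjusted 0.653), and the ratio to Etv1 by -0.35 (exact permutation p = 0.0571, adjusted 0.214). Because Etv1 is the gene targeted for deletion, the ratio to it, and the list sum that holds it, cannot stand for cell number alone. None of these ratios passed after adjustment, and the part that cell numbers have in the Edn3 difference was not tested further.

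**Figure D3:**
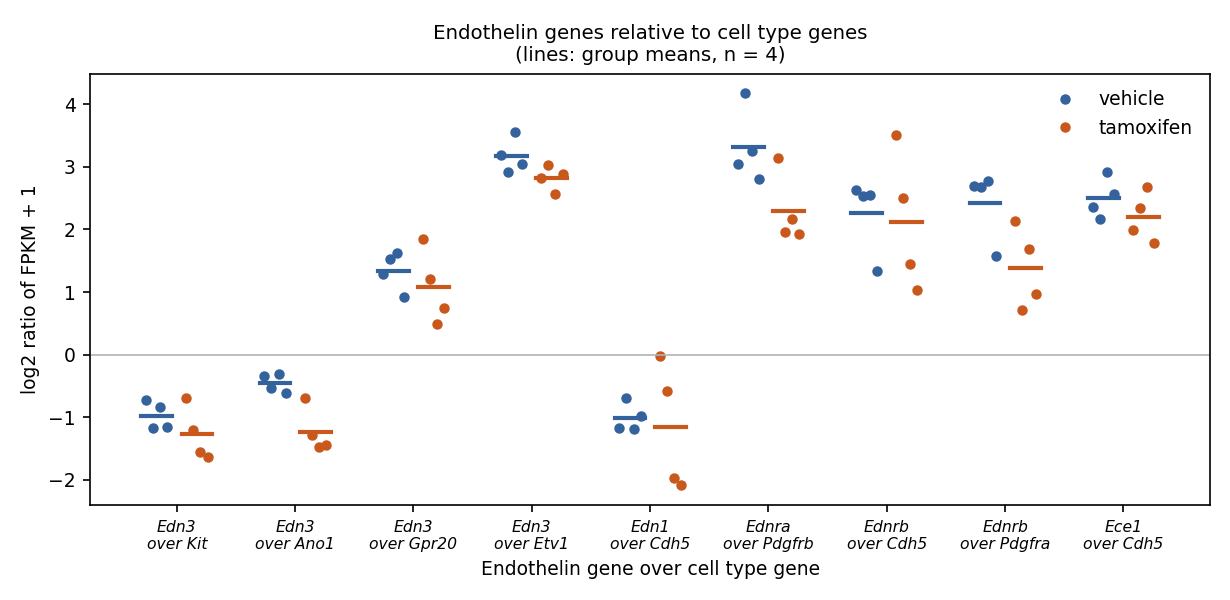
Log2 ratio of FPKM + 1 between an endothelin gene and a cell type gene in each library, for 9 ratios; points are libraries (blue vehicle, orange tamoxifen), bars are group means (n = 4). In the ratio of Edn3 to Ano1 the groups do not overlap (-0.61 to -0.31 in vehicle, -1.48 to -0.70 in tamoxifen); in the ratio of Edn3 to Kit they do.

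Edn1, the endothelial ligand, was low and split within the tamoxifen group. It measured 2.45, 2.52, 2.52 and 3.02 FPKM in vehicle and 5.95, 6.53, 2.26 and 2.06 FPKM in tamoxifen. Tamoxifen replicates 1 and 2 were above every vehicle library, and tamoxifen replicates 3 and 4 were below every one. The mean of 4.20 FPKM ± 2.37 against 2.63 ± 0.265 gave a log2 fold change of 0.40 (SE 0.31, 95% confidence interval -0.31 to 1.11, limma adjusted p = 0.492), and 0.22 without the library labelled tamoxifen replicate 1 (adjusted p = 0.744). A change could not be shown with this spread, and the interval includes both directions.

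The split of Edn1 followed the number in the identifier that the labels give each library. Identifiers below 1900 (vehicle replicates 1, 2 and 3, tamoxifen replicates 1 and 2) and above it (vehicle replicate 4, tamoxifen replicates 3 and 4) form separate ranges, and the labels do not say what the ranges stand for. Below 1900, Edn1 was at 2.45 to 2.52 FPKM in vehicle and 5.95 to 6.53 in tamoxifen, a log2 difference of 1.05. Above 1900 it was at 3.02 in the single vehicle library and 2.06 to 2.26 in tamoxifen, a log2 difference of -0.35. The directions were opposite, but with 1 vehicle library in the upper range the difference between the ranges was not tested. For Edn3 the log2 differences were -0.94 below 1900 and -1.02 above, close to each other.

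All 7 endothelium markers were tested. They summed to 76.4 to 94.4 FPKM in vehicle and 108 to 157 FPKM in tamoxifen, and 2 of 7 rose, against 2.38% of all tested genes: Pecam1 (17.5 ± 3.48 to 29.8 ± 3.29 FPKM, SD, n = 4; limma adjusted p = 0.0335) and Emcn (11.8 ± 0.931 to 23.7 ± 4.97, adjusted p = 0.0170), both proteins of the endothelial surface. Esam, the highest of the list by mean level, was at 32.0 FPKM in vehicle and 38.5 in tamoxifen (limma adjusted p = 0.537). No marker of the list was at 0. Relative to Cdh5, the cadherin of endothelial junctions, Edn1 differed by -0.16 on the log2 scale (exact permutation p = 0.8286, adjusted 0.8286), a difference that turned to 0.11 without tamoxifen replicate 3 and 0.15 without tamoxifen replicate 4. Their part in the Edn1 values was not tested.

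Edn2, the ligand that pairs most closely with Edn1 in sequence, was below 1 FPKM in every library. It measured 0.326, 0.752, 0.244 and 0.684 FPKM in vehicle and 0.405, 0.264, 0.397 and 0.314 in tamoxifen. The tamoxifen values lay inside the vehicle range, and at this level no test was made. The log2 difference was -0.14, and -0.17 without the library labelled tamoxifen replicate 1. Edn1 lies at chr13:42396639-42403358 (ENSMUSG00000021367) and Edn2 at chr4:119833811-119839965 (ENSMUSG00000028635) in mm9, with no other listed gene overlapping either. Added per library, the ligands came to 386 FPKM ± 75.1 in vehicle and 191 ± 51.2 in tamoxifen (SD, n = 4), and Edn3 made up 98.9 to 99.4% of that sum in vehicle and 96.1 to 98.6% in tamoxifen.

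Ednra, the contractile receptor, was the higher of the receptors and lower in every tamoxifen library than in any vehicle library. It measured 126, 145, 124 and 111 FPKM in vehicle and 91.1, 78.2, 89.1 and 54.1 in tamoxifen. The lowest vehicle library, replicate 4, was still above the highest tamoxifen library, replicate 1. The means of 127 FPKM ± 14.3 and 78.1 ± 17 (SD, n = 4) gave a log2 fold change of -0.71 (SE 0.18, 95% confidence interval -1.13 to -0.30), which just missed the threshold (limma adjusted p = 0.0596). It passed with median-ratio scaling (adjusted p = 0.0472) and with library quality weights (0.0317), and was -0.80 with an adjusted p of 0.0692 without the library labelled tamoxifen replicate 1. It did not pass with the replicate block (0.0750), with scaling to the same total (0.445) or without any single library (0.0600 to 0.144). By identifier, the log2 differences were -0.64 below 1900 and -0.67 above.

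The Ednra row covers chr8:80134759-80292869 in mm9 (ENSMUSG00000031616), an interval that the table gives identically to 4933431K23Rik, a noncoding transcript on the opposite strand in GENCODE M21, at a mean of 2.05 FPKM over the 8 libraries. A second noncoding gene in the interval, 1700092C02Rik, was listed at 0. The strandedness of the libraries is not given in the sources used here. Only whole intervals were compared, not exons, so whether Ednra and its antisense partner share reads was not tested.

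Ednra is expressed in smooth muscle and pericytes, and no marker of these cells was called lower. Of 6 tested smooth muscle markers (7 listed) 1 rose and 0 fell, with a summed level of 145 to 270 FPKM in vehicle and 236 to 298 in tamoxifen. Of 6 pericyte markers 3 rose and 0 fell, with a summed level of 63.6 to 73.6 FPKM in vehicle and 112 to 169 in tamoxifen. Over all tested genes 2.38% were called higher and 3.07% lower. Relative to Pdgfrb, the growth factor receptor of pericytes, the Ednra ratio differed by -1.02 on the log2 scale (exact permutation p = 0.0857, adjusted 0.214). Fibroblast markers, of which 0 of 7 were called, summed to 452 to 774 FPKM in vehicle and 646 to 1245 FPKM in tamoxifen. Their log2 fold changes were above 0 in 5 and below 0 in 2. The sum was uneven between libraries: Dcn, a matrix proteoglycan, was at 422, 531, 81.5 and 148 FPKM in tamoxifen replicates 1 to 4, against 59.7 to 90.2 in vehicle. Col1a2, the highest of the list by mean level, was at 329 FPKM in vehicle and 285 in tamoxifen, a log2 fold change of -0.23. None of these lists had a marker at 0 in all libraries, and their part in the Ednra difference was not tested. Whether the tumor cells themselves account for part of the Ednra signal was not tested either. The log2 fold change of Ednra was -0.71, against -0.75 for Kit, -0.78 for Gpr20 and -0.70 for Etv1. Edn3 apart, the remaining genes listed for the tumor cell type were at -0.27 (Ano1), -0.13 (Hand1), 0.02 (Prkcq) and 0.34 (Thbs4). No ratio of Ednra to any of these genes is given here.

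Ednrb, the receptor for Edn3, varied more within groups than between them. It measured 47.2, 32.0, 45.9 and 19.1 FPKM in vehicle and 79.6, 62.8, 33.9 and 25.6 in tamoxifen. The groups overlapped, with tamoxifen replicates 1 and 2 above the vehicle range and vehicle replicate 4 below the tamoxifen range. The means of 36.0 FPKM ± 13.2 and 50.5 ± 25.1 (SD, n = 4) gave a log2 fold change of 0.42 (SE 0.41, 95% confidence interval -0.52 to 1.35, limma adjusted p = 0.584), and 0.16 without the library labelled tamoxifen replicate 1 (adjusted p = 0.867).

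Within each identifier range, the Ednrb values of the groups did not overlap. With so few libraries per range, and 1 vehicle library above 1900, such separation arises easily by chance. The share of all tested genes that separate in this way is not given here. Below 1900 they were 32.0 to 47.2 FPKM in vehicle and 62.8 to 79.6 in tamoxifen, a log2 difference of 0.77. Above 1900 they were 19.1 in the single vehicle library and 25.6 to 33.9 in tamoxifen, a log2 difference of 0.60. With the identifier range as a covariate, the log2 fold change was 0.71 (SE 0.18) and the adjusted p from limma was 0.0584, still short of the threshold. The sign was thus opposite to that of Edn3 and Ednra in both ranges. Ednrb lies at chr14:104213842-104243390 in mm9 (ENSMUSG00000022122), with no overlapping gene.

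**Figure D4:**
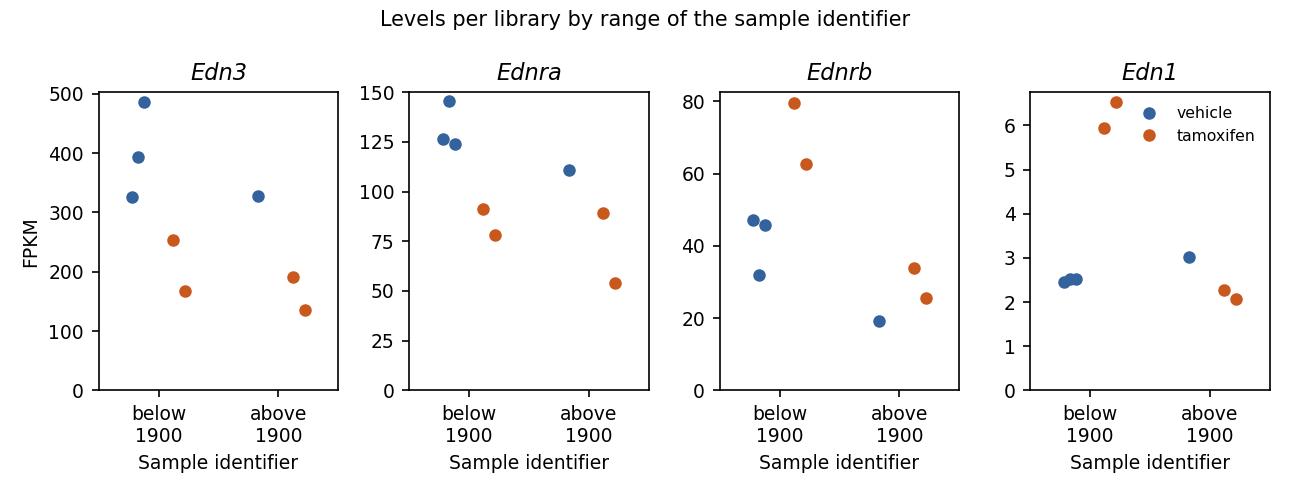
FPKM of Edn3, Ednra, Ednrb and Edn1 in each library (linear axes from 0), split by whether the sample identifier lies below or above 1900; points are libraries, 3 vehicle and 2 tamoxifen below, 1 vehicle and 2 tamoxifen above. Edn3 and Ednra are lower and Ednrb is higher in tamoxifen in both ranges, whereas Edn1 is higher below 1900 and lower above it.

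Ednrb is found in enteric glia, endothelium and melanocytes among other cells. The 6 enteric glia markers summed to only 13.2 to 20.0 FPKM in vehicle and 14.0 to 23.6 in tamoxifen. Of 4 tested, 0 were called, near the 5.45% called of all tested genes. Sox10, the transcription factor that defines glia, was at 0.468 to 1.30 FPKM in vehicle and 0.656 to 1.03 in tamoxifen. The 5 melanocyte markers summed to 0.442 to 0.555 and 0.525 to 1.15 FPKM, with Tyr listed at 0 in all libraries. The summed endothelium list was higher in tamoxifen, as given above for Edn1.

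Neither Ednrb ratio given here passed the test, a bar that 4 against 4 libraries and 10 ratios make hard to pass. Against Cdh5 the log2 ratio differed by -0.14 (exact permutation p = 0.771, adjusted 0.8286) and turned to 0.08 and 0.23 without tamoxifen replicates 3 and 4. Against Pdgfra, a receptor of fibroblasts that was itself at 5.55 ± 0.964 FPKM in vehicle and 19.4 ± 12.7 in tamoxifen, it differed by -1.05 (exact permutation p = 0.0857, adjusted 0.214). The part of these cell types in the Ednrb values was not tested.

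Ece1, the main converting enzyme, did not separate the groups. It measured 39.0, 24.6, 59.5 and 46.1 FPKM in vehicle and 27.3, 56.0, 80.4 and 43.7 in tamoxifen. Both groups ranged widely, with the lowest value in vehicle and the highest in tamoxifen. The means of 42.3 FPKM ± 14.6 and 51.8 ± 22.4 (SD, n = 4) gave a log2 fold change of 0.25 (SE 0.36, 95% confidence interval -0.57 to 1.07, limma adjusted p = 0.718), and 0.52 without the library labelled tamoxifen replicate 1 (adjusted p = 0.425). It was 0.01 without tamoxifen replicate 3 (adjusted p = 0.991) and 0.02 without vehicle replicate 2 (0.981). By identifier it differed by 0.02 below 1900 and 0.36 above. Its ratio to Cdh5 differed by -0.31 (exact permutation p = 0.257, adjusted 0.514).

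Ece2, the converting enzyme that works at acidic pH and is best known from neural tissue, was lower than Ece1 in every library. It measured 8.73, 9.03, 7.99 and 9.37 FPKM in vehicle and 4.56, 5.89, 5.16 and 7.93 in tamoxifen. The groups did not overlap, but only by the small gap between vehicle replicate 3 and tamoxifen replicate 4. The means of 8.78 FPKM ± 0.587 and 5.88 ± 1.47 (SD, n = 4) gave a log2 fold change of -0.53 (SE 0.16, 95% confidence interval -0.88 to -0.17, limma adjusted p = 0.0883). It passed only without tamoxifen replicate 4 (-0.66, adjusted p = 0.0296) and was -0.43 without the library labelled tamoxifen replicate 1 (adjusted p = 0.158). By identifier it differed by -0.63 below 1900 and -0.48 above.

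The mm9 intervals listed for both enzyme genes overlap those of other genes. Ece1 lies at chr4:137418152-137521144 in mm9 (ENSMUSG00000057530), over the antisense gene Gm13012 at a mean of 0.747 FPKM. Ece2 lies at chr16:20611666-20646558 (ENSMUSG00000022842), over Camk2n2 at a mean of 0.890 FPKM, a gene annotated on the opposite strand. In GENCODE M21 on GRCm38, Camk2n2 (chr16:20619215-20621287) lies outside Ece2 (chr16:20629828-20646485). The levels of both neighbours were well below those of the enzymes. Only whole intervals were compared, not exons, and the strandedness is not known, so whether any reads are shared was not tested. Markers of enteric neurons summed to 48.7 to 87.0 FPKM in vehicle and 30.9 to 71.3 in tamoxifen. Of 5 tested (7 listed), 0 were called, near the 5.45% called of all tested genes. Ret made up most of that sum. Without Ret the list summed to 10.6 to 23.4 FPKM in vehicle and 20.5 to 24.4 in tamoxifen, and the log2 fold changes of the other 4 tested markers were above 0. The part of these cells in the Ece2 values was not tested.

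The 250 bases before the start of Edn3 and Ednra are shown because these were the highest ligand and receptor and both were lower in every tamoxifen library. They come from RefSeq on build GRCm38.p6, where all 7 genes had an entry, and each is read 5′ to 3′ on the gene's own strand. Capitals mark GGAA or its reverse complement TTCC, the core that ETS factors such as Etv1 recognise. The Edn3 window, chr2:174760369-174760618 on the plus strand, held 1 match, and the Ednra window, chr8:77724453-77724702 on the minus strand, held 3.
Edn3: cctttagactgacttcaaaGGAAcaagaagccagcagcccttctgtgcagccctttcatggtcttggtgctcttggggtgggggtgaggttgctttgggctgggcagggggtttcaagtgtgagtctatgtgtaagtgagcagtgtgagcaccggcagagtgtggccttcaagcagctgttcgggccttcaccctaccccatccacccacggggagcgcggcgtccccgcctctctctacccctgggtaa
Ednra: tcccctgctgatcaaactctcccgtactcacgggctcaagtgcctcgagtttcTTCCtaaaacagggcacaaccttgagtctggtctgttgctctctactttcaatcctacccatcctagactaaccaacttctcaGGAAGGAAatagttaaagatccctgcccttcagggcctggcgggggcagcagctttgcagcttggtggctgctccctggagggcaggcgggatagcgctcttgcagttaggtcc
The core is common: 93.5% of 32851 windows of the same length hold it on either strand, with a median of 3 matches. The longer forms CCGGAA (or TTCCGG), which contains the core, and CCGGAAGT (or ACTTCCGG), which contains both, are held by 12.0% and 2.88% of windows and by none of the windows of the 7 genes. A match is a description of these letters and does not show binding.

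The genes whose pattern over the 8 libraries was most like that of Edn3 were found by the root-mean-square difference between log2 values after each gene was centred on its own mean, among 12639 genes. Edn3 itself deviated from its mean by 0.60 on this measure. Closest were Tspan13, a tetraspanin membrane protein, at 0.14, Gpm6b, a proteolipid of neural cells, at 0.16, St3gal6, a sialyltransferase, at 0.16, Mycn, a transcription factor of the Myc family, at 0.19, and Klre1, a receptor of NK cells, at 0.19. All 5 had lower means in tamoxifen: Tspan13 142 against 76.5 FPKM, Gpm6b 182 against 102, St3gal6 61.4 against 29.9, Mycn 2.68 against 0.862 and Klre1 2.16 against 0.483. Among the endothelin genes, Ednra came nearest to Edn3, at rank 43 with a difference of 0.26. The next, Ece2, was at rank 2373.

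Ednra, with a deviation of 0.43, was matched most closely by Meis1, a homeobox transcription factor (0.10; 73.7 against 46.2 FPKM), Rbm43, an RNA-binding protein (0.11; 33.2 against 22.2), and Hspb11, a component of intraflagellar transport (0.13; 30.3 against 19.7). Ednrb, with a deviation of 0.62, was matched less closely, by Scarna13, a small Cajal body RNA (0.23), Trem2, a receptor of macrophages (0.24; 12.5 FPKM in vehicle against 19.5 in tamoxifen), and Ints8, a subunit of the Integrator complex (0.26; 41.2 against 49.7). These likenesses are descriptions over 8 libraries that share the same treatment contrast.

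Among 10 peptidases listed for endothelin processing or clearance, not all of them known to act on endothelins, 4 were high enough to test. Of these, 1 rose and 0 fell, with a median log2 fold change of 0.14 against 0.01 for all tested genes. The one that rose was Pcsk5, a proprotein convertase of the furin family. It measured 1.79, 1.34, 1.47 and 2.28 FPKM in vehicle and 5.08, 4.45, 11.4 and 7.71 in tamoxifen. Every tamoxifen library was above every vehicle library, with means of 1.72 FPKM ± 0.418 and 7.17 ± 3.18 (SD, n = 4) and a log2 fold change of 1.52 (SE 0.26, limma adjusted p = 0.0184). The call was lost without vehicle replicate 2 (adjusted p = 0.0581), without vehicle replicate 3 (0.0604) and with the replicate block (0.0506), and kept without the library labelled tamoxifen replicate 1 (0.0299). Over all tested genes 2.38% were called higher, and in 7.37% every tamoxifen library lay above every vehicle library.

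The other tested peptidases did not pass the threshold. Furin, the convertase that makes the first cut in endothelin precursors, was at 19.2 FPKM in vehicle and 22.3 in tamoxifen (limma adjusted p = 0.767), Pcsk7, a related convertase, at 16.9 and 18.6 (adjusted p = 0.597), and Ctsa, a lysosomal carboxypeptidase that degrades endothelin, at 172 and 189 (adjusted p = 0.656). Kel, a surface endopeptidase of red cells that cleaves the Edn3 precursor, was listed at 0 in all 8 libraries. Ecel1, Mme, Mmel1, Cma1 and Mcpt4 were below the mean of 1 FPKM.

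Among 28 genes of receptor coupling and desensitisation, all tested, 2 rose, 1 fell and 25 did not pass, with 8 at an unadjusted p under 0.05 and a median log2 fold change of -0.08. Over all tested genes 5.45% were called, 2.38% higher and 3.07% lower. The share at an unadjusted p under 0.05 is not given here. The phospholipase C beta genes, whose enzymes carry the signal from Gq to calcium release, went in different directions. Plcb4 measured 20.3, 21.6, 21.4 and 10.4 FPKM in vehicle and 91.3, 71.3, 74.2 and 33.6 in tamoxifen, a log2 fold change of 1.78 (SE 0.34, limma adjusted p = 0.0243). Plcb2, best known from blood cells, measured 6.81, 5.72, 6.19 and 8.66 FPKM in vehicle and 2.93, 3.99, 2.20 and 3.70 in tamoxifen, a log2 fold change of -0.91 (SE 0.18, adjusted p = 0.0287). In neither gene did the groups overlap. Of the 28 genes, 2 were lower and 3 higher without overlap, against 7.74% and 7.37% of all tested genes. They include Itpr1 (lower) and Rgs4 (higher), which were not called, and Rgs5.

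Rgs5, a regulator that shortens Gq and Gi signals and is also the pericyte marker used above, rose as well. It measured 49.2, 46.1, 46.8 and 41.8 FPKM in vehicle and 127, 81.7, 75.5 and 72.7 in tamoxifen, a log2 fold change of 0.91 (SE 0.18, limma adjusted p = 0.0289). Again every tamoxifen library was above every vehicle library, and the pericyte list that holds Rgs5 was higher in tamoxifen as a sum. Markers of T and NK cells summed to 148 to 215 FPKM in vehicle and 75.3 to 99.1 in tamoxifen, with log2 fold changes below 0 in 6 of 6, of which 4 were called. Those of neutrophils summed to 7.44 to 27.4 and 180 to 471 FPKM, with log2 fold changes above 0 in 6 of 6, of which 4 were called. Retnlg (0.641 FPKM) and Mmp8 (0.207 FPKM) of the neutrophil list had vehicle means below the filter of 1 FPKM. Prf1 of the T and NK cell list had a tamoxifen mean of 0.947 FPKM. These were tested only through the group where they were high, so the filter partly set their direction. For comparison, 3.07% of all tested genes were called lower and 2.38% higher. The part of these blood cell types in the Plcb2 difference was not tested. The number of calls in this list was 0 without any one of the vehicle replicates and 1 without tamoxifen replicate 1, without tamoxifen replicate 2, with the replicate block or with scaling to the same total. Without the library labelled tamoxifen replicate 1, Rgs5 kept its call (adjusted p = 0.0191), and Plcb4 (0.0552) and Plcb2 (0.0637) did not. Without vehicle replicates 1, 2, 3 and 4 in turn, the adjusted p was 0.0531, 0.0575, 0.0602 and 0.0586 for Plcb4, 0.0705, 0.0577, 0.0720 and 0.0774 for Plcb2, and 0.0618, 0.0781, 0.0804 and 0.0850 for Rgs5, and without tamoxifen replicate 2 it was 0.0645 for Plcb4 and 0.0630 for Rgs5.

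**Figure D5:**
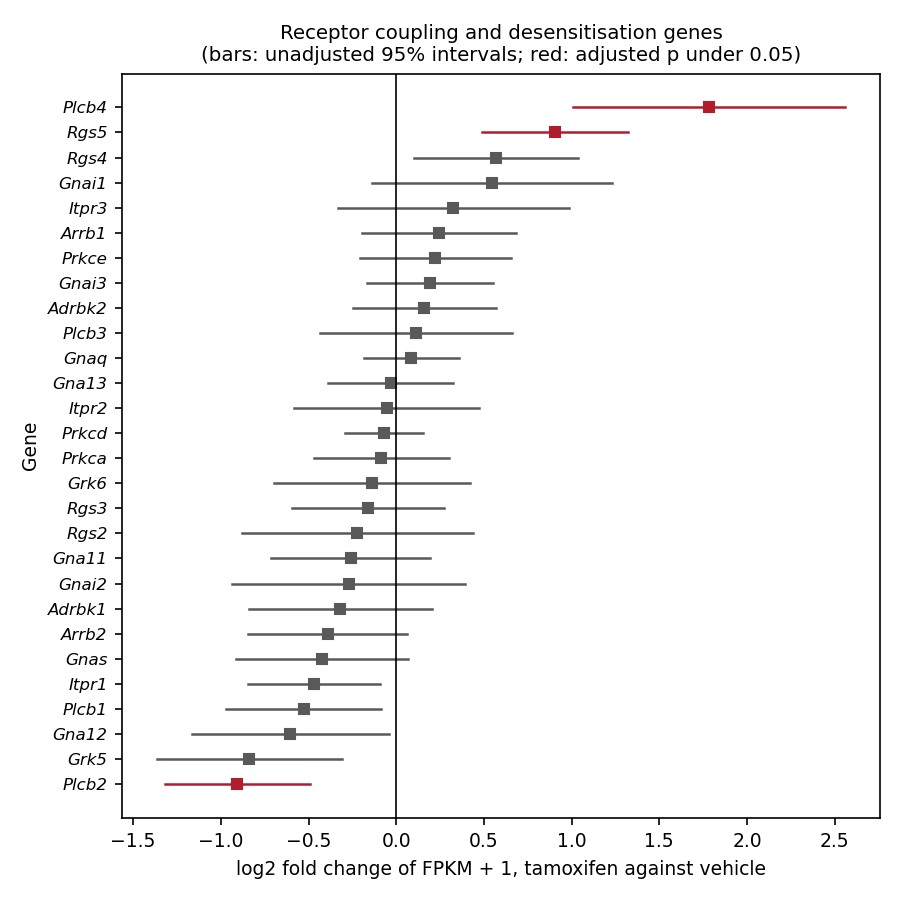
Log2 fold change of FPKM + 1, tamoxifen against vehicle, for 28 genes of receptor coupling and desensitisation, ordered by size; squares are limma estimates from 4 against 4 libraries, bars are unadjusted 95% confidence intervals, and red marks an adjusted p under 0.05. Plcb4 (1.78) and Rgs5 (0.91) lie to the right and Plcb2 (-0.91) to the left; the other 25 genes did not pass.

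Of 8 genes that work with Edn3 and Ednrb in the enteric neural crest, 4 were high enough to test. limma called 0 of the 4, near the 5.45% called of all tested genes. The median log2 fold change of the 4 was 0.12, and 1 of them had an unadjusted p under 0.05. That one was Ret, the receptor for glial cell line-derived neurotrophic factor, at 52.9 FPKM ± 16.7 in vehicle and 27.0 ± 17.6 in tamoxifen (SD, n = 4; log2 fold change -1.13, limma adjusted p = 0.181). Zeb2, a zinc finger transcription factor needed for neural crest migration, was at 6.69 and 9.69 FPKM (adjusted p = 0.607). Ret overlapped between the groups, with tamoxifen replicate 3 at 50.0 FPKM inside the vehicle range.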

How the data were processed

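RNA sequencing libraries from cecal GIST tumors of mice, 8 in all, 4 vehicle and 4 tamoxifen, were grouped by their sample titles. The deposited table gives gene-level FPKM with a status for each value, in a Cuffdiff layout per the file headers. STAR 2.3, Cufflinks, Cuffdiff and build mm9 are named in the submitters' processing notes; what each did, the annotation and the scaling are not given in the sources used. All FPKM columns matched a sample.

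Rows were summed per symbol, and 178 values with a failed status, none in the endothelin genes, were treated as missing. Genes with a mean of at least 1 FPKM and at least 2 estimates per group were compared as log2(FPKM + 1), which understates changes of low genes, with limma 3.58.1 in R 4.3.3 (mean-variance trend, 2-sided, Benjamini-Hochberg over 15023 genes, threshold 0.05). Adjusted p for genes come from this fit. Log2 ratios of FPKM + 1 were compared by exact permutation over 70 arrangements (SciPy 1.17.1) and adjusted over 10 ratios, of which 9 are given and the other is not reported here. The fit was tested on simulated data. Alternatives were other pseudocounts, filters, scalings, weights, a replicate block, identifier range as covariate, robust moderation and leaving out each library.

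The genes, gene lists and tests were chosen with earlier results of these data known. Named were the 7 genes, Etv1, the ratio denominators, called list members (or the 2 with the smallest p; all tested peptidases), up to 2 markers per cell type by level, and the 5, 3 and 3 genes most like Edn3, Ednra and Ednrb, leaving out predicted genes and receptor segments. Emcn, Sox10, Tyr, Hand1, Prkcq, Thbs4, Itpr1, Rgs4, Retnlg, Mmp8, Prf1 and the peptidases below the filter were added outside this rule, after their values were seen. Summed marker lists not mentioned in the results were, in vehicle and tamoxifen, 927 to 1703 and 1595 to 3428 FPKM for intestinal epithelium, 337 to 473 and 282 to 679 for macrophages, 13.1 to 20.7 and 19.6 to 66.0 for mesothelium, and 0.776 to 2.69 and 6.82 to 30.1 for squamous epithelium.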

Additional observations from a re-analysis of the deposited data

Results flagged for a closer look

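Of 46 groups of 4 libraries examined, 5 held a library far from the other 3 of its group (gap over range above Dixon's critical value for 4 values), where chance gives about 5% of groups. Edn1 in vehicle replicate 4 was at 3.02 FPKM against 2.45 to 2.52 in the other vehicle libraries. Plcb4 in the same library was at 10.4 FPKM against 20.3 to 21.6. Rgs5 in tamoxifen replicate 1 was at 127 FPKM against 72.7 to 81.7 in the other tamoxifen libraries. Gpr20 in tamoxifen replicate 3 was at 136 FPKM against 69.8 to 80.3. Cdh5, a denominator of the ratios, was at 4.69 FPKM in vehicle replicate 2 against 6.77 to 7.04 in the other vehicle libraries.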

How the results depend on the processing

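The direction of each of the 7 endothelin genes was kept under every alternative that gave it a value. The number of genes called, 819, became 534 with a filter at a mean of 5 FPKM, 228 with libraries scaled to the same total FPKM, 252 with the replicate block, and 268 to 856 when 1 library was left out (268 without vehicle replicate 3, 274 without vehicle replicate 4, 288 without vehicle replicate 2, 378 without tamoxifen replicate 2, 450 without vehicle replicate 1 and 544 without tamoxifen replicate 1). The total scaling moved the median log2 fold change of all genes to 0.06. The adjusted p of Edn3 was 0.0545 with no filter, 0.256 with total scaling and 0.0664 with the replicate block, and 0.0242 to 0.0903 when 1 library was left out. Ednra passed with median-ratio scaling (0.0472) and quality weights (0.0317), and not with total scaling (0.445), the replicate block (0.0750) or any library left out (0.0600 to 0.144), and Etv1 with quality weights (0.0490). Ece2 ranged from 0.0296 to 0.196 when 1 library was left out. The cause of these changes was not tested. Deviations of same-numbered libraries from their group means correlated over genes at -0.16, -0.00, 0.14 and 0.06. With 4 libraries per group this cannot show whether the replicate numbers pair the samples.

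Of single genes, Furin turned to a log2 fold change of -0.00 with the identifier covariate (adjusted p = 0.994) and -0.04 without tamoxifen replicate 3 (0.927). Its adjusted p ranged from 0.352 to 0.927 when 1 library was left out. The calls of Plcb2 and Rgs5 were lost with total scaling (0.133 and 0.169) and with the replicate block (0.0600 and 0.0539), that of Plcb2 also with no filter (0.0598). When 1 library was left out, the adjusted p of Plcb4 was 0.0136 to 0.0645, of Plcb2 0.0370 to 0.0774, of Rgs5 0.0191 to 0.0850 and of Pcsk5 0.0212 to 0.0604. The ratios to Cdh5 then ranged from -0.54 to 0.15 for Edn1 and from -0.60 to 0.23 for Ednrb. Depth is unknown, so no counting error can be given for low genes such as Edn2.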

Other observations

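Ratios between endothelin genes within a library, chosen after their values were seen, are given with no test. Ednra over Ednrb was 2.68, 4.55, 2.70 and 5.79 in vehicle and 1.14, 1.25, 2.63 and 2.11 in tamoxifen, with no overlap, and the closest libraries were vehicle replicate 1 and tamoxifen replicate 3. Ednra made up 72.8 to 85.3% of the summed receptor FPKM in vehicle and 53.4 to 72.4% in tamoxifen. Edn3 over Edn1 was 108 to 193 in vehicle and 25.6 to 84.9 in tamoxifen. Ece1 over Ece2 was 2.72 to 7.45 and 5.51 to 15.6, with overlap. The summed receptor level was 163 FPKM ± 22.1 in vehicle and 129 ± 38.1 in tamoxifen (SD, n = 4).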
